A study of Homo sapiens with 6 samples.

Results

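U251 is an established glioblastoma cell line, and its 2 libraries were compared with the 4 libraries of the glioblastoma lines LN-229 and T98G, 6 libraries in all. The libraries were taken by the cell line that the labels name, where the sample titles write LNT229 for what the cell line entry calls LN-229, the name used here. Genes were then sought that were high or absent in U251 alone, with both U251 libraries beyond all 4 others and with U251 beyond LN-229 and beyond T98G in separate comparisons. The study transfected each line with siPOOLs, which are complex pools of siRNAs, directed against the long non-coding RNA HOTAIRM1 (siHOTAIRM1) or against no target (siControl), and sequenced RNA of cells collected 72 hours later. Each line gave 1 siControl and 1 siHOTAIRM1 library, with no further manipulation named in the labels. Libraries of 1 line are therefore different treatments and not replicates of a condition. The tests between lines measure their differences against the spread of line by siPOOL, drawn towards the spread of other genes. Each line descends from the tumour of a single patient, so line, patient and culture history cannot be told apart.

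The identity of a cell is held largely by transcription factors that keep a lineage's genes active, together with the surface receptors, adhesion molecules and matrix that the cell makes. In the developing brain, SOX2 and related factors mark neural progenitors, from which astrocytes, oligodendrocytes and neurons arise. Glioblastoma cells express parts of these programmes side by side, often with genes of mesenchymal cells, and lines grown in serum for many years keep different parts of them.

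Values are read counts scaled to library size (CPM), given for each line in the order siControl, siHOTAIRM1. The depth was 52.3 M and 101 M reads in U251, 88.3 M and 104 M in LN-229 and 69.1 M and 72.7 M in T98G, so that 3 reads, taken as the smallest detectable level, were worth 0.0289 to 0.0574 CPM. Floors of this kind cover counting error only. HOTAIRM1, the target of the knock-down, was at 1.27 and 0.622 CPM in U251, 1.99 and 0.952 CPM in LN-229 and 3.49 and 2.14 CPM in T98G. It was lower in the siHOTAIRM1 library of each line, its U251 and LN-229 values overlapped, and it was lower in U251 than in T98G (difference -0.97, adjusted p = 1.00e-06 from limma) and was not called for U251 alone.

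The U251 siControl library stood apart from the others. It had the lowest depth, 22.4% of its listed CPM lay on small structural RNAs, against 10.9 to 14.0% in the other 5 libraries, and the signal recognition particle RNA RN7SL1 alone was at 60589 CPM, against 11862 to 27894 CPM in the others. Of the 14294 genes that averaged at least 1 CPM over the libraries, 296 differed by more than 1 in log2(CPM + 1) between the U251 libraries. In LN-229 33 genes did so, and in T98G 67. Across genes, which are not independent replicates, log2(CPM + 1) of the U251 libraries correlated with a Pearson r of 0.981, and libraries of different lines with an r of 0.775 to 0.807. The part of this library's composition in the results was not tested, and the counts of genes called, detected or absent in U251 alone and of genes that differed from each line are given with and without it.

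Against each line, a large share of the tested genes differed. With limma on log2(CPM + 1) and a Benjamini-Hochberg adjusted p under 0.05, 5243 of the 14294 genes (36.7%) were higher and 3421 (23.9%) lower in U251 than in LN-229, and 5866 (41.0%) were higher and 3304 (23.1%) lower than in T98G. Leaving out a library lowered these counts, to 3301 genes higher than in LN-229 without its siControl library and 4637 without its siHOTAIRM1 library, and to 3806 higher than in T98G without its siHOTAIRM1 library and 4985 without its siControl library, where 2177 were lower. Without the U251 siControl library they were 4331 higher and 2689 lower than in LN-229, and 4968 higher and 2597 lower than in T98G. The balance of directions moved with the scaling, to 3936 higher and 5024 lower than in LN-229 and 4288 and 4920 than in T98G with each library scaled to its protein-coding genes, 4589 and 4285, and 4641 and 4549, with median centring, and 4818 and 4264, and 4852 and 4479, with quantile normalization. The median difference of all genes was 0.15 from LN-229 and 0.22 from T98G on the log2 scale. A gene was called for U251 alone where both comparisons passed the threshold in the same direction with a difference of at least 1 and both U251 libraries lay beyond the 4 others. For a called gene, a lack of overlap between U251 and the other lines is thus fixed in advance. By this rule, 1099 genes (7.69%) were higher and 617 (4.32%) lower in U251 than in both other lines. The same rule called 790 genes (5.53%) higher and 576 (4.03%) lower in LN-229, and 710 (4.97%) higher and 672 (4.7%) lower in T98G. Both comparisons share the U251 libraries, and the smaller of the 2 differences, that from the nearer line, is the measure used to rank genes.

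The balance of directions among the called genes also depended on the scaling. As deposited, 64.0% of the called genes were higher in U251. With each library scaled to its protein-coding genes it was 39.0% (707 higher, 1106 lower), with median centring 49.1% (768 higher, 795 lower) and with quantile normalization 52.7% (739 higher, 662 lower). Of the 1099 higher genes, 699 (63.6%) kept their call with protein-coding scaling, as did 614 of the 617 lower genes. Without the U251 siControl library the rule called 1022 genes higher and 590 lower, which included 890 (81.0%) of the 1099 and 555 (90.0%) of the 617. Of the genes named by the rule given with the methods, 135 were called. All of them kept their direction under every setting fitted per gene, which leaves out the other minimum differences. Of these, 12 lost the call under at least 1 such setting, which is given beside each gene shown here. The count does not cover the other called genes shown, of which some, such as PCDH10, BHLHE40 and TNFSF9, also lost it.

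Most called genes differed by 1 to 2 on the log2 scale, and a small set by far more. The median difference from the nearer line was 1.35 for the higher and -1.53 for the lower genes. A difference of at least 2 was seen for 238 higher and 182 lower genes, and of at least 4 for 47 and 23. Protein-coding genes made up 952 of the higher and 536 of the lower genes, and long non-coding RNAs 22 and 18. Of the lower genes, 329 were under 1 CPM in both U251 libraries, and 162 of the higher genes were under 1 CPM in all libraries of the other lines.

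**Figure D1:**
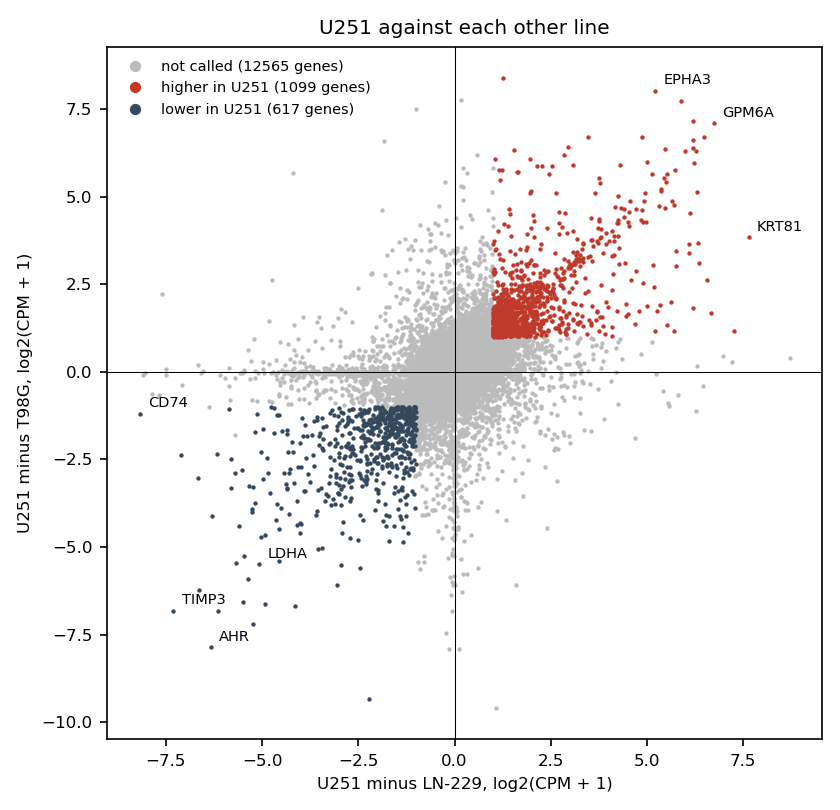
Each point is a gene, placed by its difference of log2(CPM + 1) between U251 and LN-229 (x axis) and between U251 and T98G (y axis), with 1099 genes called higher in red and 617 called lower in dark blue. The axes share the U251 libraries, so that points spread along the diagonal by construction, and GPM6A at the top right and TIMP3 and AHR at the bottom left lie far from the bulk of genes.

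The protein-coding gene highest above the nearer line was GPM6A. GPM6A, a membrane glycoprotein of neurons that promotes outgrowth of processes, was at 163 and 141 CPM in U251, 0.464 and 0.394 CPM in LN-229 and 0.130 and 0.0962 CPM in T98G. NEFL, the light chain of the neurofilaments, was at 92.1 and 65.7 CPM in U251, 0 and 0.0385 CPM in LN-229 and 0 and 0 CPM in T98G. CNR1, the cannabinoid receptor of the brain, was at 229 and 204 CPM in U251, 2.97 and 2.34 CPM in LN-229 and 0.0290 and 0.0138 CPM in T98G. All 3 were high in both U251 libraries and near or under a few CPM in the 4 others. GPM6A differed by 6.74 ± 0.17 (SE) from LN-229 and by 7.10 ± 0.17 from T98G (2 libraries per line, larger adjusted p = 3.89e-27 from limma).

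TENM2, a teneurin that joins cells across synapses, was at 155 and 135 CPM in U251, 1.03 and 0.885 CPM in LN-229 and 1.29 and 1.43 CPM in T98G. ITGB4, the integrin chain of hemidesmosomes, was at 194 and 152 CPM in U251, 1.22 and 1.48 CPM in LN-229 and 0.695 and 0.866 CPM in T98G. GJB2, a gap junction connexin, was at 58.6 and 47.7 CPM in U251, 0 and 0.0192 CPM in LN-229 and 0 and 0 CPM in T98G. The U251 levels of these adhesion and junction genes exceeded those of every other library by far, and GJB2 was under the level of 3 reads outside U251. IL13RA2, a decoy cytokine receptor studied as a target of glioblastoma immunotherapy, was at 68.4 and 34.9 CPM in U251, 0.0566 and 0.106 CPM in LN-229 and 0 and 0.0138 CPM in T98G, and CRYAB, a small heat shock protein of astrocytes and muscle, was at 44.7 and 46.9 CPM in U251, 0.0453 and 0.115 CPM in LN-229 and 0.0145 and 0.0275 CPM in T98G. RGS4, which shortens signals from G protein-coupled receptors, was at 122 and 55.7 CPM in U251, 1.37 and 0.519 CPM in LN-229 and 0.0145 and 0.0275 CPM in T98G. For IL13RA2 and RGS4 the siControl level in U251 was the higher, and both U251 libraries exceeded all others. The remaining leading genes were SCUBE3, a secreted glycoprotein, at 161 and 214 CPM in U251, ABCA13, a lipid transporter of the ATP-binding cassette type, at 187 and 224 CPM, and SPAG17, a protein of motile cilia, at 79.4 and 85.5 CPM, each under 3 CPM in all 4 other libraries. The differences of these 12 genes from the nearer line ranged from 5.44 (CRYAB) to 6.74 (GPM6A), and each had an adjusted p from limma of 3.16e-23 or less.

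On the other side, U251 had little RNA of the aryl hydrocarbon receptor, of the complement proteins C3, C1S and C1R and of the muscle type chain of lactate dehydrogenase. TIMP3, a matrix-bound inhibitor of metalloproteinases, was at 2.94 and 3.24 CPM in U251, 600.1 and 699 CPM in LN-229 and 540.0 and 390.3 CPM in T98G. AHR, a ligand-activated transcription factor, was at 0.153 and 0.148 CPM in U251, 90.7 and 94.1 CPM in LN-229 and 288 and 243 CPM in T98G. LDHA, which turns pyruvate into lactate, was at 14.3 and 11.2 CPM in U251, 473 and 446 CPM in LN-229 and 688 and 549.6 CPM in T98G. Both U251 libraries were low and all 4 others high for each gene, where the rule of calling excludes overlap. TIMP3 differed by -7.31 ± 0.19 from LN-229 and by -6.82 ± 0.19 from T98G, AHR by -6.34 ± 0.17 and -7.85 ± 0.17, and LDHA by -5.07 ± 0.19 and -5.50 ± 0.19, with adjusted p from limma of 2.31e-22 or less.

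LDHA shares sequence with processed pseudogenes, among which the authors' quantification divides reads. Summed over LDHA and its 6 listed pseudogenes, U251 stayed low, at 15.9 and 12.5 CPM against 511 and 479.6 CPM in LN-229 and 787 and 632 CPM in T98G. LDHB, the heart type chain of the same enzyme, was at 385 and 242 CPM in U251, 320.2 and 344 CPM in LN-229 and 263 and 197 CPM in T98G. Its U251 values overlapped those of the other lines. LDHB was looked at after the value of LDHA had been seen.

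C3, the central component of complement, was at 0.804 and 0.326 CPM in U251, 76.9 and 151 CPM in LN-229 and 230.0 and 130.3 CPM in T98G. The proteases of the C1 complex, C1S and C1R, were at 0.134 and 0.316 CPM and 1.84 and 2.06 CPM in U251, 34.7 and 57.9 CPM and 67.2 and 115 CPM in LN-229, and 197 and 161 CPM and 335 and 252 CPM in T98G. All 3 were low in U251 and high in LN-229 and T98G. C1S and C1R lie side by side on chromosome 12, and with C1RL, C1RL-AS1 and CLSTN3 they made a run of 5 consecutive tested genes over 171 kb that were all called lower in U251. C1RL-AS1 overlaps genes on the other strand, and the libraries do not tell strands apart, so its own level is uncertain.

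PERP, a p53 target found in desmosomes, was at 0.0383 and 0.0198 CPM in U251, 49.9 and 42.1 CPM in LN-229 and 114 and 81.5 CPM in T98G. KYNU, an enzyme of tryptophan breakdown, was at 0.153 and 0.119 CPM in U251, 40.8 and 52.5 CPM in LN-229 and 101 and 44.3 CPM in T98G. PCOLCE, which speeds the trimming of procollagens, was at 0.402 and 0.346 CPM in U251, 53.2 and 67.7 CPM in LN-229 and 48.8 and 54.3 CPM in T98G. U251 was low for each of them, with values of PERP under 3 reads in both libraries. MIF, a cytokine-like tautomerase, was at 0 and 0.0988 CPM in U251, 26.5 and 35.5 CPM in LN-229 and 28.8 and 22.4 CPM in T98G, and EHBP1L1 was at 0.134 and 0.385 CPM in U251 and 31.9 to 41.1 CPM elsewhere. DDT, the nearest relative of MIF and its neighbour on chromosome 22, was at 17.6 and 11.5 CPM in U251, 15.9 and 14.7 CPM in LN-229 and 13.4 and 10.2 CPM in T98G and so was present in U251. DDT was chosen after the value of MIF had been seen. The histone gene HIST1H4J was at 0 and 0 CPM in U251, 46.3 and 53.9 CPM in LN-229 and 50.3 and 36.2 CPM in T98G. Genes for histone H4 are nearly identical, however, and the sum over the 16 listed H4 genes was 953 and 482 CPM in U251, 512 and 546 CPM in LN-229 and 625 and 447 CPM in T98G. The sums overlapped between the lines, and how reads were divided among HIST1H4J, its neighbour HIST1H4K, HIST1H4L and the other H4 genes was not tested.

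**Figure D2:**
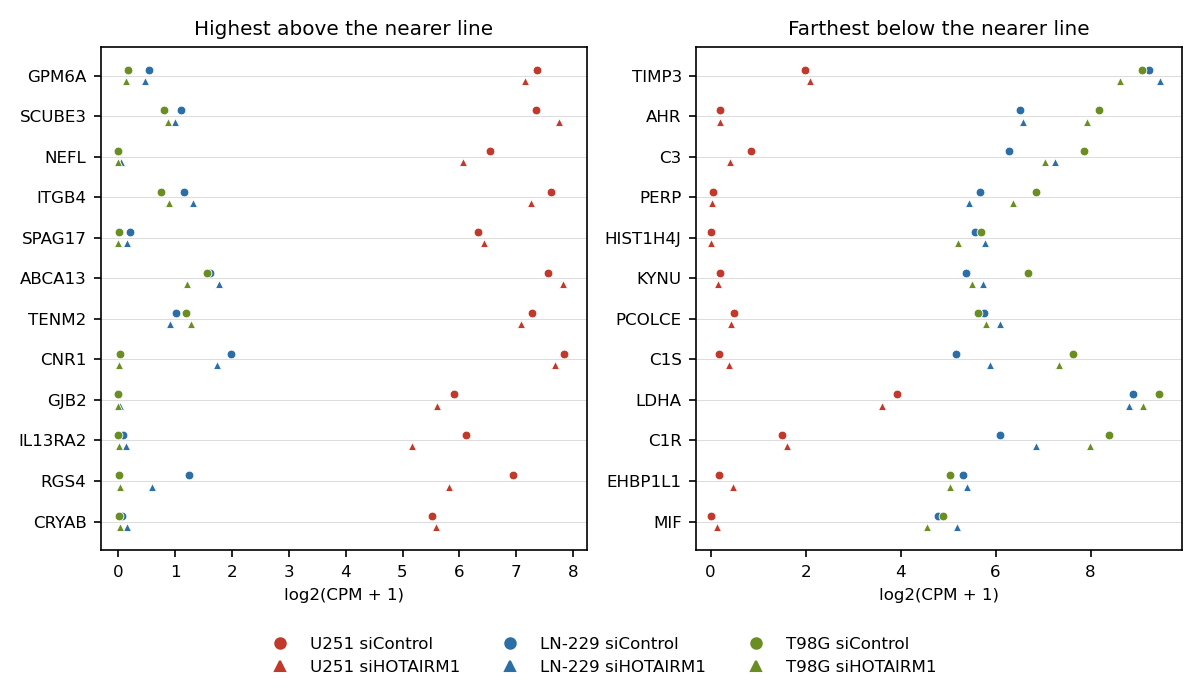
Levels as log2(CPM + 1) of the 12 protein-coding genes highest above (left) and the 12 farthest below (right) the nearer line, circles for siControl and triangles for siHOTAIRM1. U251 (red) lies apart from LN-229 (blue) and T98G (green) for every gene shown, which the choice of genes fixes, and the siPOOL treatments of a line lie close together beside that distance.

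Of the long non-coding RNAs, SOX2-OT was highest above the nearer line, at 146 and 141 CPM in U251, 0.861 and 1.06 CPM in LN-229 and 0.0290 and 0.0138 CPM in T98G. It overlaps SOX2 on the same strand, so that reads of SOX2 may be counted for it. LINC00461, a brain-enriched RNA, was at 169 and 165 CPM in U251, 4.94 and 4.33 CPM in LN-229 and 8.37 and 7.01 CPM in T98G, and MIR99AHG, the host gene of microRNAs of the miR-99 family, was at 29.1 and 19.1 CPM in U251 and 0.283 to 0.742 CPM elsewhere. The farthest below were C1RL-AS1 at 0.478 and 0.534 CPM, FAM225A at 0.226 and 0.296 CPM and TRHDE-AS1 at 0.0191 and 0.0395 CPM in U251, with all other libraries at 2.47 CPM or more.

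Promoter sequences are shown for 4 genes, SOX2 and SOX21, on which the neural progenitor results turn, and TIMP3 and AHR, the 2 protein-coding genes farthest below the nearer line. They are RefSeq windows of 250 bases before to 50 bases after the start of the gene on GRCh38.p14, at chr3:181711675-181711974 on the plus strand for SOX2, chr13:94712496-94712795 on the minus strand for SOX21, chr22:32801455-32801754 on the plus strand for TIMP3 and chr7:17298402-17298701 on the plus strand for AHR. Capitals mark the dinucleotide CG, the base pair step at which vertebrate DNA is methylated, which reads the same on both strands.
SOX2: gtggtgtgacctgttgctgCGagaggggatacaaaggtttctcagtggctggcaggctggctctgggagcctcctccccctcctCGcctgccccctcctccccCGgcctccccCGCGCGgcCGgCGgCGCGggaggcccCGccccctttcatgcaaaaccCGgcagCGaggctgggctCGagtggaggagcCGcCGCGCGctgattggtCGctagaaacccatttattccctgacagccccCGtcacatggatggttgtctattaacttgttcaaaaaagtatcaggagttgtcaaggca
SOX21: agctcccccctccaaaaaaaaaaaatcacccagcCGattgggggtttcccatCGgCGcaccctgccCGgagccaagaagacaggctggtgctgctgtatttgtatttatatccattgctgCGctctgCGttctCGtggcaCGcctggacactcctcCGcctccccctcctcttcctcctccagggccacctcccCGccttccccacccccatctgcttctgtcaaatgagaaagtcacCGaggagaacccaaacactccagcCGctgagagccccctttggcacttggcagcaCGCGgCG
TIMP3: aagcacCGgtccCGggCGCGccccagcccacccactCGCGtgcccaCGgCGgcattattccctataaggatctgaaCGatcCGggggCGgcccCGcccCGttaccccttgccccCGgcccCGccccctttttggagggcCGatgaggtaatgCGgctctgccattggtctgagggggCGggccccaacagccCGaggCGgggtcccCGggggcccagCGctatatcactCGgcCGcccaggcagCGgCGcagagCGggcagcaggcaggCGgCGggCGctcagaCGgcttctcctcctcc
AHR: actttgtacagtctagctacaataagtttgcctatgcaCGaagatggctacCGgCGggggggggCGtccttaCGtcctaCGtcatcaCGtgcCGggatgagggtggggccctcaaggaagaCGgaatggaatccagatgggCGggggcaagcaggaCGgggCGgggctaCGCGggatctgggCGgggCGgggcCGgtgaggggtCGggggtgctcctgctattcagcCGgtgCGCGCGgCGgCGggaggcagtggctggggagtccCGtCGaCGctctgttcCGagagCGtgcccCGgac
The windows hold 20 (SOX2), 15 (SOX21), 31 (TIMP3) and 30 (AHR) CG steps. Of all 35116 windows in the table, 96.0% hold at least 1, the median is 14, and 41.2%, 48.9%, 20.7% and 22.4% hold at least as many as these 4 in turn. Methylation was not measured. A comparison of CG content between called and other genes is void, because the table has a window for 49.6% of the tested genes.

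Markers of astroglia were higher in U251 than in either other line for some genes and not for others. Of 13 tested astrocyte markers, 4 were higher (30.8%) and 2 lower (15.4%) in U251 than in both lines. Here and for each list below, the shares among all tested genes, 7.69% higher and 4.32% lower, are the background. GFAP, the intermediate filament of astrocytes, was at 42.5 and 20.8 CPM in U251, 0.317 and 0.298 CPM in LN-229 and 0.0434 and 0.0550 CPM in T98G. FABP7, the fatty acid binding protein of radial glia, was at 58.2 and 35.7 CPM in U251, 2.95 and 2.06 CPM in LN-229 and 0 and 0.0138 CPM in T98G, and SLC1A3, a glial glutamate transporter, was at 66.3 and 61.8 CPM in U251, 4.10 and 2.51 CPM in LN-229 and 18.3 and 13.1 CPM in T98G. U251 exceeded every other library for all 3. SOX9, a factor of glial fate, was at 31.6 and 47.1 CPM in U251, 0.0227 and 0.0289 CPM in LN-229 and 10.3 and 11.5 CPM in T98G. LN-229 thus had 3 reads of it or fewer in each library, and T98G had an intermediate level. GLUL, the glutamine synthetase of astrocytes, was lower in U251 at 11.8 and 7.82 CPM, against 28.2 to 80.2 CPM in the other libraries, and so was NDRG2 at 0.0766 and 0.0593 CPM. S100B was at 2.53 and 2.06 CPM in U251, 21.1 and 24.7 CPM in LN-229 and 0 and 0 CPM in T98G and was not called, since U251 lay between the other lines. Of the defining markers, AQP4 and ALDH1L1 were near 0 in all 6 libraries. The median difference of the list was 0.76 from LN-229 and 1.41 from T98G, against 0.15 and 0.22 for all genes. Summed over the 20 markers, U251 had 459.9 and 428 CPM, LN-229 174 and 162 CPM and T98G 412 and 334 CPM, with GJA1 the most abundant.

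Of 16 tested genes of neural stem and progenitor cells, 7 were higher and 1 lower, with median differences of 1.22 and 1.32. SOX2, which keeps neural progenitors undifferentiated, was at 91.4 and 117 CPM in U251, 8.15 and 8.60 CPM in LN-229 and 0.0145 and 0 CPM in T98G. SOX21, a relative of SOX2, was at 11.4 and 18.1 CPM in U251, 0 and 0.0192 CPM in LN-229 and 0 and 0 CPM in T98G. U251 was highest for both genes, LN-229 kept a low level of SOX2, and T98G was at or near 0. The neural POU factors POU3F3 and POU3F2 were at 6.30 and 8.36 CPM and 40.2 and 51.1 CPM in U251, 0.929 and 0.904 CPM and 19.1 and 19.7 CPM in LN-229, and at 0.0687 CPM or less in T98G. HEY1, a Notch target, was at 15.9 and 24.7 CPM in U251, 1.38 and 1.54 CPM in LN-229 and 7.01 and 5.95 CPM in T98G, and the RNA-binding protein gene MSI2 at 122 and 152 CPM in U251, 56 and 56.2 CPM in LN-229 and 25.7 and 25.9 CPM in T98G. SOX11, a factor of immature neurons, went the other way, at 0.0766 and 0.00988 CPM in U251, 26.8 and 28.8 CPM in LN-229 and 11.7 and 9.25 CPM in T98G. NES, the progenitor filament nestin, was at 329 and 507 CPM in U251, 368 and 359.7 CPM in LN-229 and 0.956 and 0.866 CPM in T98G, high in both U251 and LN-229 and low in T98G, and was not called. With the other scalings 5 or 6 of the list were higher, and 8 without the U251 siControl library. Where 5 were higher, at least 1 of HEY1, MSI2 and POU3F2 had lost its call.

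Of the oligodendrocyte lineage genes, PDGFRA, the growth factor receptor of oligodendrocyte precursors and a glioblastoma oncogene, was at 125 and 134 CPM in U251, 7.34 and 9.73 CPM in LN-229 and 38.4 and 48 CPM in T98G. PTPRZ1, a receptor phosphatase of the same cells, was at 71.8 and 90.9 CPM in U251, 21 and 34.2 CPM in LN-229 and 0.0145 and 0.0412 CPM in T98G, and MBP, a protein of myelin, was at 4.92 and 5.84 CPM in U251, 0.159 and 0.269 CPM in LN-229 and 0.130 and 0.151 CPM in T98G. These 3 of 13 tested genes (23.1%, against 7.69% of all genes) were higher in U251 than in all other libraries and limma called 0 lower, where 2 had unadjusted p under 0.05 in both comparisons and up to 2 were called lower in another setting. The defining factors were low, however, with SOX10 at 0.0766 and 0.0198 CPM and OLIG2 at 0.0574 and 0 CPM in U251. SOX10 reached 81.5 and 112 CPM in LN-229. The list's median difference was -1.44 from LN-229 and 0.02 from T98G.

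Of 12 tested neuronal genes, 3 were higher and 2 lower, and without the U251 siControl library 5 were higher. Beside NEFL, GAP43, a growth cone protein, was at 11.2 and 3.90 CPM in U251, 0.657 and 0.433 CPM in LN-229 and 0.0434 and 0.0138 CPM in T98G, and UCHL1, a neuronal ubiquitin hydrolase, at 355 and 289 CPM in U251, 34.7 and 27.2 CPM in LN-229 and 159 and 104 CPM in T98G. With quantile normalization UCHL1 lost its call (difference 0.89). L1CAM, an axonal adhesion molecule, was lower at 1.19 and 0.227 CPM against 19.6 to 62.3 CPM elsewhere, and SNAP25, a vesicle fusion protein, at 0.689 and 0.524 CPM against 5.55 to 8.46 CPM. The defining neuronal genes RBFOX3 and STMN2 were at 0.00988 CPM or less in all 6 libraries. Of the 28 neuronal genes listed, 11 were under 3 reads in every library.

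Mesenchymal genes were split. Of 36 tested genes of the mesenchymal glioma state, 5 were higher and 3 lower, and with the other scalings 3 to 5 were higher and 4 or 5 lower. VIM, the filament protein vimentin, was at 1794 and 1309 CPM in U251, 635 and 652 CPM in LN-229 and 403 and 254 CPM in T98G, and ANXA2, a calcium-dependent membrane binder, at 1029.6 and 818 CPM in U251, 305 and 343 CPM in LN-229 and 302 and 247 CPM in T98G. U251 was highest for both, and for the AP-1 factor FOSL2 at 139 and 180.4 CPM and BHLHE40, a repressor tied to hypoxia and the clock, at 45.6 and 68.8 CPM. The call of VIM ended with protein-coding scaling (difference 0.98) and quantile normalization (0.81), and without the LN-229 siControl library (0.95). That of BHLHE40 also ended with another scaling, where 3 of the list were higher. Summed with its pseudogenes, ANXA2 stayed apart at 2001 and 1548 CPM in U251 and 497.5 to 653 CPM elsewhere. The matrix protein FN1 was lower at 197 and 309.8 CPM in U251, 642 and 901 CPM in LN-229 and 1108 and 1119 CPM in T98G, as were the transition factors SNAI1 at 0.211 and 0.257 CPM and TWIST2 at 0.0191 and 0.0494 CPM, against 2.93 CPM or more in all other libraries. CD44, the hyaluronan receptor, was at 819 and 572 CPM in U251, 329 and 304 CPM in LN-229 and 780.4 and 623 CPM in T98G, and U251 overlapped T98G. CHI3L1 was present in T98G at 9.61 and 3.08 CPM and at 0.0383 CPM or less in both other lines. The list's median difference was 0.68 from LN-229 and -0.06 from T98G.

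Markers of cells that a culture of glioma cells should lack were mostly near 0. The leukocyte marker PTPRC was at 0.0869 CPM or less in all 6 libraries, the endothelial marker PECAM1 at 0.0574 and 0.0198 CPM in U251 and 0.522 CPM or less elsewhere, and the epithelial markers CDH1, EPCAM and KRT5 at 0.0191 CPM or less in U251. Some genes of these lists were nevertheless called. Of 10 tested epithelial genes, 4 were higher and 2 lower. The hair keratin KRT81 was at 371 and 173 CPM in U251, 0.201 and 0.343 CPM in LN-229 and 26.2 and 10.4 CPM in T98G. KRT81 shares sequence with KRT83 and KRT86, and the sum of these 3 was 377 and 175 CPM in U251, 0.272 and 0.423 CPM in LN-229 and 28 and 11.7 CPM in T98G, with no overlap. KRT15 was at 9.15 and 2.34 CPM, the tight junction gene OCLN at 8.05 and 9.27 CPM and KRT80 at 28.5 and 20.2 CPM in U251, each above all other libraries. KRT18 and KRT8 were lower, KRT18 at 4.75 and 3.42 CPM in U251, 93.9 and 76.2 CPM in LN-229 and 74 and 55.4 CPM in T98G and KRT8 at 0.383 and 0.257 CPM in U251 and 2.01 to 3.40 CPM elsewhere.

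The receptors of the vascular growth factor VEGF differed in opposite directions. KDR was at 8.42 and 4.72 CPM in U251, 0.0340 and 0.00962 CPM in LN-229 and 0.0145 and 0 CPM in T98G. FLT1, a receptor that also acts as a trap for the same ligand, was at 0.0383 and 0.0692 CPM in U251, 139.8 and 151 CPM in LN-229 and 5.02 and 3.93 CPM in T98G. U251 had KDR and little FLT1, and LN-229 had the reverse. Of 3 tested endothelial markers, they were the 1 called higher and the 1 called lower, and up to 2 were lower with another scaling and 2 without the U251 siControl library. CDH5, the cadherin of endothelium, was at 2.83 and 1.30 CPM in U251 and at 0.0192 CPM or less elsewhere, under the filter for testing. The 13 endothelial markers summed to 12.6 and 7.26 CPM in U251, 143 and 155 CPM in LN-229 and 12.7 and 11.1 CPM in T98G. Among 4 tested immune markers limma called 0 higher (0 at an unadjusted p under 0.05 in both comparisons) and 1, CD74, lower (up to 2 with another scaling and up to 3 in any setting), and the 19 markers summed to 3.56 and 1.82 CPM in U251, 547 and 811 CPM in LN-229, and 13 and 7.01 CPM in T98G. Of 11 tested fibroblast and pericyte genes limma called 0 higher (2 at an unadjusted p under 0.05 in both comparisons) and 2 lower, POSTN at 0.191 and 0.731 CPM and FAP at 0.0766 and 0.0889 CPM in U251. The difference of FAP from the nearer line, -1.05, was -0.84 under quantile normalization, -0.91 without the U251 siHOTAIRM1 library and -0.86 without the T98G siControl library, which ended the call. COL1A2, the most abundant of them, was at 587 and 622 CPM in U251, 0.453 and 0.443 CPM in LN-229 and 409 and 511 CPM in T98G, highest in U251 with T98G close behind, and was not called. Of 7 tested neural crest, Schwann cell and melanocyte genes limma called 0 higher (0 at an unadjusted p under 0.05 in both comparisons) and 1 lower, or 0 to 3 lower with another scaling. In bulk RNA, fewer cells of a type and less RNA per cell cannot be told apart.

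**Figure D3:**
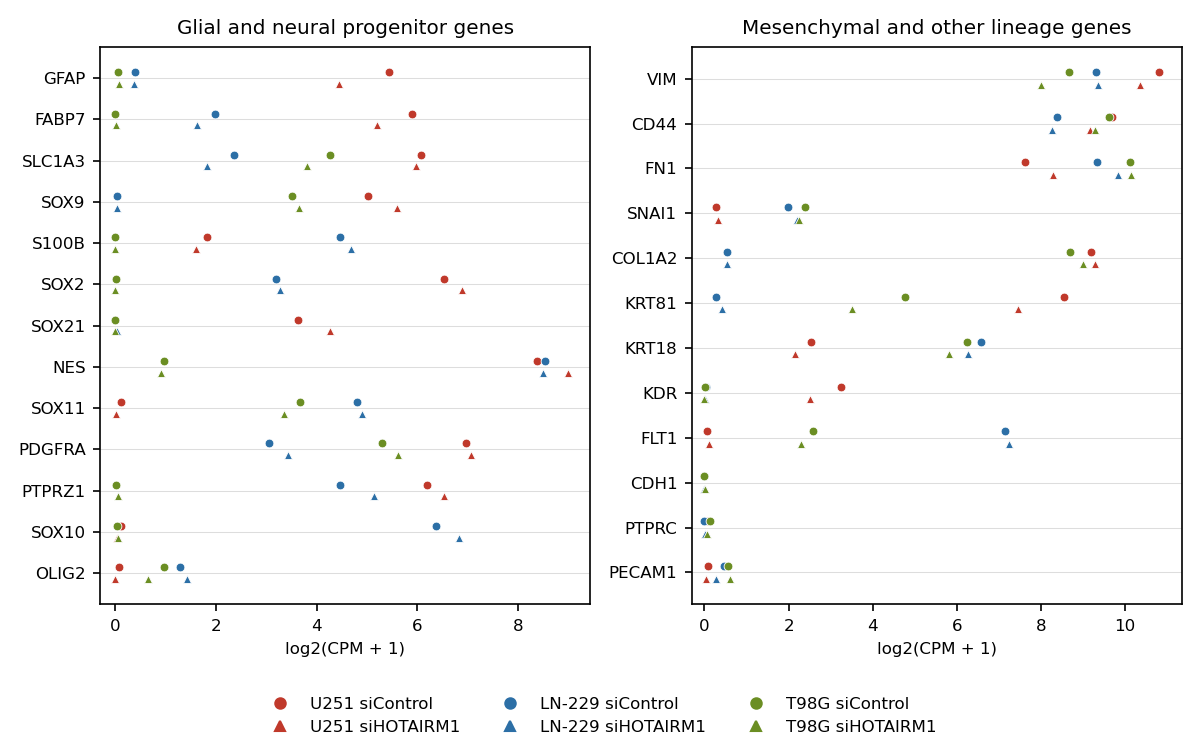
Levels as log2(CPM + 1) of lineage genes by library, circles for siControl and triangles for siHOTAIRM1. U251 (red) lies highest for GFAP, FABP7, SLC1A3, SOX9, SOX2, SOX21, PDGFRA, PTPRZ1, VIM, KRT81 and KDR, lowest for SOX11, OLIG2, FN1, SNAI1, KRT18 and FLT1, between the other lines for S100B, and not apart for NES and CD44. The panels were drawn from genes on the lists after their values were seen.

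Transcription factors of the body axes record regional identity. Of 20 tested HOX genes limma called 0 higher (3 at an unadjusted p under 0.05 in both comparisons) and 1 lower, HOXC11, at 0.0191 and 0.00988 CPM in U251, 2.96 and 2.71 CPM in LN-229 and 1.58 and 1.18 CPM in T98G. Other settings called up to 1 higher and up to 4 lower. Of 42 other patterning factors, 3 were higher (7.14%) and 3 lower (7.14%), against 7.69% and 4.32% of all genes, and up to 5 were lower with another scaling and up to 7 in any setting. IRX1 was at 11.5 and 13.7 CPM in U251, 0.215 and 0.221 CPM in LN-229 and 1.69 and 1.79 CPM in T98G. FOXD1, a forkhead factor of the developing kidney and retina, was at 0 and 0 CPM in U251, 3.48 and 3.61 CPM in LN-229 and 4.68 and 3.55 CPM in T98G, at least 60.6-fold higher in every library of the other lines against the level of 3 reads per library. IRX2 was at 0 in both U251 libraries and at 1.67 to 2.22 CPM elsewhere, so that 2 neighbouring members of the IRX family went in opposite directions. The median differences were -0.31 and 0.22 for HOX genes and -0.04 and -0.01 for the others, against 0.15 and 0.22 for all genes.

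Of 31 tested receptor tyrosine kinases, 8 were higher and 2 lower, and the 3 other scalings also gave 8 higher, with up to 5 lower. EPHA3, an ephrin receptor, was at 318 and 219 CPM in U251, 6.15 and 6.20 CPM in LN-229 and 0 and 0.0412 CPM in T98G. EPHA5, its relative of the brain, was at 64 and 50.6 CPM in U251, 0.612 and 0.693 CPM in LN-229 and 0.159 and 0.151 CPM in T98G. NTRK3, a neurotrophin receptor, was at 13.9 and 7.45 CPM in U251, 0.0113 and 0.0192 CPM in LN-229 and 0.174 and 0.151 CPM in T98G. U251 was above all other libraries for each, and LN-229 had a low level of EPHA3. KDR and PDGFRA, described above, belong to the same group, with the collagen receptor DDR1 at 92.5 and 83.4 CPM in U251, 34.1 and 32.4 CPM in LN-229 and 33.5 and 29.7 CPM in T98G, FGFR3 at 2.99 and 4.13 CPM and ROS1 at 2.57 and 2.61 CPM in U251. ERBB2, the partner receptor of the EGFR family, was lower at 0.364 and 0.484 CPM in U251, 148 and 83 CPM in LN-229 and 24.4 and 22.9 CPM in T98G. EGFR itself was at 44.4 and 50.1 CPM in U251, 52.6 and 50.3 CPM in LN-229 and 171 and 139.5 CPM in T98G, where U251 lay near LN-229, and AXL, the most abundant of the list, at 211 and 177 CPM in U251, 262 and 222 CPM in LN-229 and 179 and 136 CPM in T98G, and neither was called. The list's median differences were 0.37 and 0.15.

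**Figure D4:**
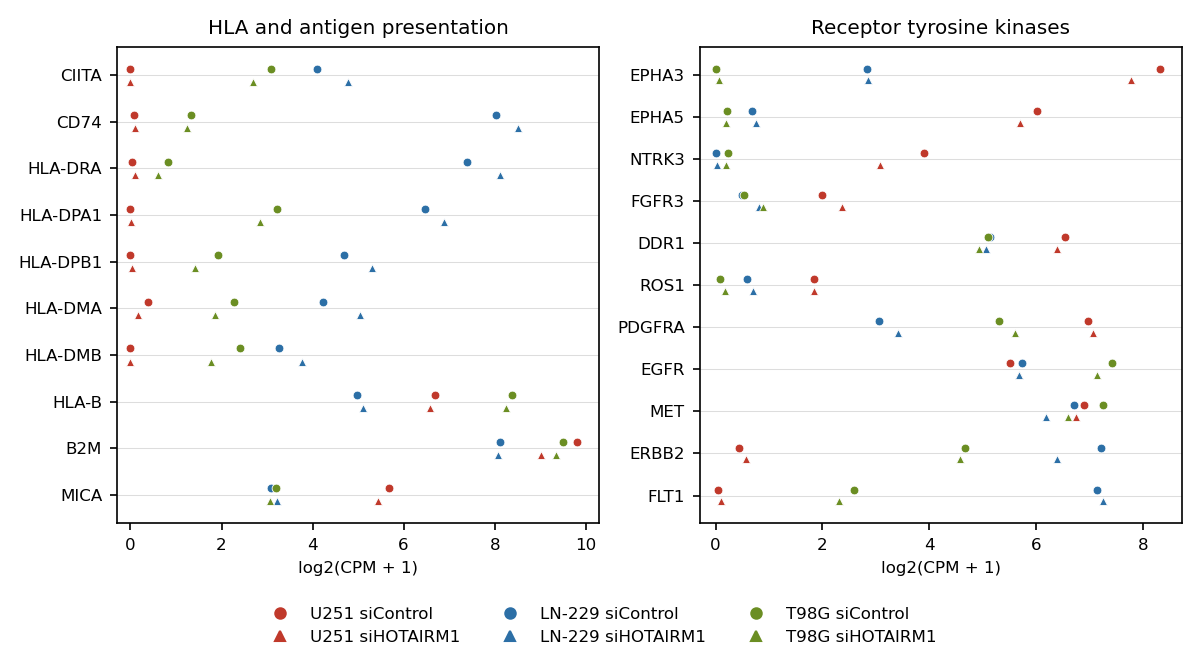
Levels as log2(CPM + 1) by library of antigen presentation genes (left) and receptor tyrosine kinases (right), circles for siControl and triangles for siHOTAIRM1. U251 (red) lies at or near 0 for CIITA and the class II genes and overlaps the range of the other lines for HLA-B and B2M, and is highest for EPHA3, EPHA5 and NTRK3 and lowest for ERBB2 and FLT1.

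RNA of the class II pathway of antigen presentation was at or near 0 in U251. Of 26 tested HLA and antigen presentation genes, 6 were lower and 1 higher, and 6 to 8 were lower under the other scalings and 2 higher without the U251 siControl library. CIITA, the coactivator that switches on class II genes, was at 0 and 0 CPM in U251, 16.2 and 26.4 CPM in LN-229 and 7.47 and 5.46 CPM in T98G, at least 95.1-fold higher in every library of the other lines against the level of 3 reads per library. HLA-DPA1 was at 0 and 0.00988 CPM in U251, 87.5 and 117 CPM in LN-229 and 8.35 and 6.13 CPM in T98G, and CD74, the invariant chain, at 0.0574 and 0.0692 CPM in U251, 261 and 365 CPM in LN-229 and 1.51 and 1.38 CPM in T98G. U251 was at 0 or near it for all 3, LN-229 was high and T98G low but above U251. HLA-DPB1, HLA-DMA and HLA-DMB followed the same order, with U251 at 0 and 0.0296 CPM, 0.306 and 0.119 CPM and 0 and 0 CPM. HLA-DRA was at 0.0191 and 0.0692 CPM in U251, 166 and 277 CPM in LN-229 and 0.767 and 0.522 CPM in T98G, where U251 lay under both lines, but under T98G by less than the minimum difference. B2M, the shared chain of class I molecules, was at 894 and 514 CPM in U251, 275 and 269.6 CPM in LN-229 and 727 and 649.8 CPM in T98G and was not called. MICA, a stress ligand of natural killer cells encoded in the same region, was higher at 50.5 and 42.3 CPM in U251, 7.44 and 8.33 CPM in LN-229 and 8.24 and 7.37 CPM in T98G. The ligands of the checkpoint receptor PD-1 were also higher, CD274 at 14.4 and 11.9 CPM in U251, 2.01 and 1.46 CPM in LN-229 and 2.46 and 1.29 CPM in T98G and PDCD1LG2 at 9.28 and 4.81 CPM in U251, 0.906 and 0.818 CPM in LN-229 and 2.66 and 1.55 CPM in T98G. These ligands were chosen after their values were seen.

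Adhesion molecules differed in both directions. Of 21 tested cadherins, 4 were higher and 2 lower, with 1 or 2 lower under the other scalings, and of 18 integrins 2 and 2, with up to 4 lower under another scaling. CDH4, the retinal cadherin, was at 41.8 and 58.9 CPM in U251, 0 and 0.0289 CPM in LN-229 and 0.623 and 0.811 CPM in T98G. PCDH20 was at 98.2 and 43.9 CPM in U251, 0.204 and 0.375 CPM in LN-229 and 1.87 and 1.10 CPM in T98G, and FAT3, a giant cadherin of neurons, at 33 and 30.5 CPM in U251, 0.102 and 0.144 CPM in LN-229 and 0.275 and 0.385 CPM in T98G. These 3 were high in U251 alone. PCDH10 was at 15.9 and 23 CPM in U251 against 8.90 CPM or less elsewhere, and its call ended with each of the 3 other scalings, which left 3 cadherins higher. DCHS1 and PCDH1 were lower, at 0.153 CPM or less in U251, and PCDH1 lost its call without the filter on low values (adjusted p = 0.054 from limma), with quantile normalization (difference -0.96) and without the T98G siControl library (difference -0.71). ITGA9, a partner of tenascin and osteopontin, was at 61.3 and 55.2 CPM in U251, 10.0 and 15.4 CPM in LN-229 and 0 and 0.0275 CPM in T98G. ITGA1, a collagen-binding chain, was lower at 0.957 and 0.647 CPM in U251, 28.4 and 26.2 CPM in LN-229 and 40.1 and 31.1 CPM in T98G, and ITGA5, the fibronectin-binding chain, at 47.1 and 39.4 CPM in U251, 229 and 185 CPM in LN-229 and 132 and 97 CPM in T98G. U251 thus stood above both lines for ITGB4 and ITGA9 and under both for ITGA1 and ITGA5.

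Matrix proteins were called in equal number, 9 higher and 9 lower of 60 tested, with median differences of -0.43 and -0.06. COL21A1, a fibril-associated collagen, was at 48.7 and 39.4 CPM in U251, 0.113 and 0.0770 CPM in LN-229 and 0.0579 and 0.385 CPM in T98G. The laminin chains LAMA5 and LAMA2 were at 37.2 and 33.8 CPM and 13.4 and 9.12 CPM in U251, with 2.08 CPM or less of LAMA5 and 0.319 CPM or less of LAMA2 elsewhere. U251 was also highest for VCAN, a proteoglycan of brain matrix, at 762 and 719 CPM in U251, 236 and 213 CPM in LN-229 and 72.7 and 96.3 CPM in T98G, and for SPP1, osteopontin, at 322 and 178 CPM in U251, 72 and 45.9 CPM in LN-229 and 12.2 and 7.84 CPM in T98G. NID2, nidogen, was lower at 0.0383 and 0.0494 CPM in U251, 52.5 and 46.4 CPM in LN-229 and 20.1 and 22.2 CPM in T98G, and HSPG2, perlecan, at 1.53 and 1.13 CPM in U251, 74.5 and 94.9 CPM in LN-229 and 25.5 and 35.5 CPM in T98G. COL8A1, a short-chain collagen of vessels, was at 7.96 and 11 CPM in U251, 221 and 248 CPM in LN-229 and 187 and 123 CPM in T98G. FN1 and POSTN belong to the same lower group. The summed CPM of the list was 7394 and 8375 in U251, against LN-229 at 8199 and 9169 and T98G at 11269 and 10855.

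Of 24 tested WNT pathway genes 3 were higher and 2 lower, and up to 4 were lower with another scaling. DKK1, a secreted WNT antagonist, was at 95.7 and 44.9 CPM in U251, 11.1 and 11.5 CPM in LN-229 and 11.7 and 5.54 CPM in T98G, NOTUM, which inactivates WNT proteins, was at 5.59 and 3.70 CPM in U251 and 0.414 CPM or less elsewhere, and WNT2B at 7.54 and 14.4 CPM against 1.28 CPM or less. The transcription factors LEF1 and TCF7, through which WNT signals act, were lower, LEF1 at 5.19 and 4.70 CPM in U251, 24.5 and 27.6 CPM in LN-229 and 12.2 and 16.2 CPM in T98G and TCF7 at 0.708 and 0.761 CPM in U251, 2.98 and 4.26 CPM in LN-229 and 7.59 and 8.99 CPM in T98G. U251 lay under all other libraries for both factors.

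Of 44 tested genes of the TGF-beta and BMP pathways, 6 were higher and 5 lower. The 3 other scalings called 6 higher and 7 to 9 lower. LTBP1, which stores latent TGF-beta in the matrix, was at 61.7 and 53.2 CPM in U251, 5.39 and 6.06 CPM in LN-229 and 7.34 and 4.39 CPM in T98G. ID2, a BMP target that blocks differentiation factors, was at 55.3 and 17.3 CPM in U251, 0.929 and 0.760 CPM in LN-229 and 4.52 and 2.91 CPM in T98G. The U251 siControl level of ID2 was more than 3 times that of siHOTAIRM1, and both exceeded all other libraries. The BMP receptor BMPR1B was at 17.9 and 15.1 CPM in U251, 2.13 and 2.46 CPM in LN-229 and 0.0290 and 0 CPM in T98G, and ID3 at 78.8 and 36.9 CPM in U251 against 4.66 to 15 CPM elsewhere. The co-receptors TGFBR3 and ENG were lower, TGFBR3 at 0.249 and 0.405 CPM in U251, 8.54 and 15 CPM in LN-229 and 17.9 and 17.4 CPM in T98G and ENG at 0.823 and 0.929 CPM in U251, 10.6 and 12.3 CPM in LN-229 and 45.8 and 53.7 CPM in T98G. BAMBI, a decoy receptor, was at 12.3 and 11.5 CPM in U251 against 52.8 to 82.1 CPM elsewhere. The list's median differences were -0.16 and -0.18.

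Among 23 tested cytokines and chemokines 2 were higher and 4 lower, with median differences of -1.78 and -0.53. The 3 other scalings called 5 to 8 lower, and all settings 2 to 8. IL18, which activates interferon gamma production, was at 37.1 and 30.2 CPM in U251, 0.0680 and 0.125 CPM in LN-229 and 1.16 and 0.495 CPM in T98G. IL11, a relative of IL6, was at 33.7 and 18.3 CPM in U251, 4.43 and 6.17 CPM in LN-229 and 0.463 and 0.193 CPM in T98G. The monocyte chemokine CCL2 was lower at 17.4 and 11.5 CPM in U251, 520.5 and 591 CPM in LN-229 and 62.5 and 37.7 CPM in T98G. U251 had the most IL18 and IL11 and the least CCL2 of the 6 libraries. IL6 was at 1.70 and 1.69 CPM in U251 and 3.64 to 12.4 CPM elsewhere, and its call ended without the filter (adjusted p = 0.057 from limma) and, at a difference of -0.70, without the T98G siControl library. TNFSF9 was at 0.0191 and 0.00988 CPM in U251 against 0.784 CPM or more. Its call also ended in a setting, where MIF and CCL2 were the 2 lower genes left. MIF, described above, was the farthest below.

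Metallothioneins, which bind zinc and copper, were high in U251, with 3 of 4 tested genes called higher and 0 called lower by limma in every setting (0 at an unadjusted p under 0.05 in both comparisons). MT1E was at 105 and 37 CPM in U251, 3.10 and 1.71 CPM in LN-229 and 3.58 and 1.18 CPM in T98G. MT1X was at 31 and 14 CPM in U251, 4.05 and 3.0 CPM in LN-229 and 7.19 and 2.94 CPM in T98G, and MT1F at 4.71 and 1.92 CPM in U251, 0 and 0 CPM in LN-229 and 0.753 and 0.289 CPM in T98G. The siControl level of each was more than 2 times the siHOTAIRM1 level in U251, and both lay above all other libraries. Members of this family are alike in sequence, and the sum over 10 listed MT1 and MT2A genes was 219 and 104 CPM in U251, 46.2 and 41.6 CPM in LN-229 and 29.5 and 16 CPM in T98G. MT2A, the most abundant, was at 78.4 and 51.3 CPM in U251, 39.1 and 36.9 CPM in LN-229 and 18 and 11.6 CPM in T98G and was not called.

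Of 29 tested aldehyde, aldo-keto, cytochrome and glutathione enzymes, 3 were higher and 4 lower, and with the other scalings 2 were higher and 3 to 5 lower. CYP27A1, the sterol hydroxylase of mitochondria, was at 15.6 and 17 CPM in U251, 0.634 and 0.664 CPM in LN-229 and 2.06 and 1.39 CPM in T98G, and GSTA4 at 11.8 and 5.71 CPM in U251 against 1.90 CPM or less elsewhere. ALDH1B1 was at 35.8 and 32.9 CPM, a call that the 3 other scalings ended (differences of 0.74 to 0.85), as did leaving out the T98G siHOTAIRM1 library (0.85). CYP1B1, a target gene of AHR, was at 1.42 and 1.33 CPM in U251, 10.9 and 8.15 CPM in LN-229 and 17.6 and 12.9 CPM in T98G. CYP1A1, the best known target of AHR, was at 0 and 0 CPM in U251, 0.657 and 0.827 CPM in LN-229 and 2.72 and 2.10 CPM in T98G, chosen after its values were seen and not called. AHR and both of these genes were lowest in U251. CYP26B1, which degrades retinoic acid, was at 0.134 and 0.0790 CPM in U251 against 1.79 CPM or more, and GSTP1 at 49.3 and 37.6 CPM against 96.6 CPM or more. ALDH1A3, a marker of mesenchymal glioma stem cells, was at 15.8 and 15.7 CPM in U251 and 735 and 644 CPM in LN-229. In T98G it was at 10.99 and 8.90 CPM. U251 thus lay between the other lines, and ALDH1A3, chosen after its values were seen, was not called.

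Of 27 tested genes with known roles in glioblastoma, 2 were higher (7.41%) and 1 lower (3.70%), against 7.69% and 4.32% of all genes (up to 2 lower with another scaling), and 8 were higher and 5 lower at an unadjusted p under 0.05 in both comparisons. Beside PDGFRA, PIK3R1, the regulatory chain of the lipid kinase PI3K, was at 68.5 and 78.6 CPM in U251, 26.4 and 26.2 CPM in LN-229 and 25.5 and 25.1 CPM in T98G. IDH2, the mitochondrial isocitrate dehydrogenase, was lower at 2.83 and 5.11 CPM in U251, 8.89 and 14.6 CPM in LN-229 and 53.2 and 41 CPM in T98G. MGMT, which repairs alkylated guanine, was at 0 in both U251 libraries, 0.0113 and 0 CPM in LN-229 and 7.44 and 5.86 CPM in T98G, so that its absence was shared with LN-229. The same held for CDKN2B, at 0 in all U251 and LN-229 libraries and 8.04 and 4.28 CPM in T98G. Around this gene on 9p21, 1 of 9 tested neighbours was higher, KLHL9 at 75 and 56.1 CPM in U251, a call that ended with the 3 other scalings (differences of 0.75 to 0.88) and without the siControl library of U251 (0.87) or of LN-229 (0.88). CDKN2B-AS1 was lower, at 0 in both U251 libraries and 1.57 to 3.45 CPM elsewhere. MTAP was at 107 and 102 CPM in U251, 60.1 and 55.4 CPM in LN-229 and 23.6 and 16.7 CPM in T98G and was not called. TGM2, which the study examined, was at 0.0191 and 0 CPM in U251, 43.6 and 31.3 CPM in LN-229 and 8.31 and 9.38 CPM in T98G, under 3 reads in both U251 libraries.

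Of 24 tested cancer-testis genes 1 was higher, TEX15, at 6.56 and 5.92 CPM in U251, 0 and 0.00962 CPM in LN-229 and 0.0724 and 0.206 CPM in T98G, and limma called 0 lower (1 at an unadjusted p under 0.05 in both comparisons). Of 10 tested glutamate and GABA receptors limma called 0 higher (2 at an unadjusted p under 0.05 in both comparisons) and 1 (10%) lower, GABBR1, at 2.13 and 3.47 CPM in U251 against 6.51 CPM or more elsewhere, and its call ended without the siControl library of U251 (difference -0.89) or of T98G (-0.97). Among 25 proliferation genes limma called 0 in either direction, where 3 were higher and 3 lower at an unadjusted p under 0.05 in both comparisons, with median differences of -0.12 and 0.32, and the summed level was 2494 and 2439 CPM in U251, 2688 and 2734 CPM in LN-229 and 2418 and 2050 CPM in T98G.  Of 20 common reference genes limma called 3 higher (15%, against 7.69% of all genes) and 0 lower (1 at an unadjusted p under 0.05 in both comparisons). RPL13A, a ribosomal protein, was at 473 and 303 CPM in U251, 139 and 143 CPM in LN-229 and 110.2 and 77.8 CPM in T98G, and TFRC, the transferrin receptor, and PGK1, a glycolytic kinase, were also higher. TFRC, at 1062 and 828 CPM in U251, lost its call under the 3 other scalings (differences of 0.75 to 0.93). PGK1, at 679 and 1043 CPM, lost it under protein-coding scaling (0.93) and quantile normalization (0.78), without the U251 siHOTAIRM1 library (0.86) and without the T98G siHOTAIRM1 library (0.86). With 9 pseudogenes added, RPL13A summed to 1337 and 892 CPM in U251 and to 295 to 430.0 CPM elsewhere.

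**Figure D5:**
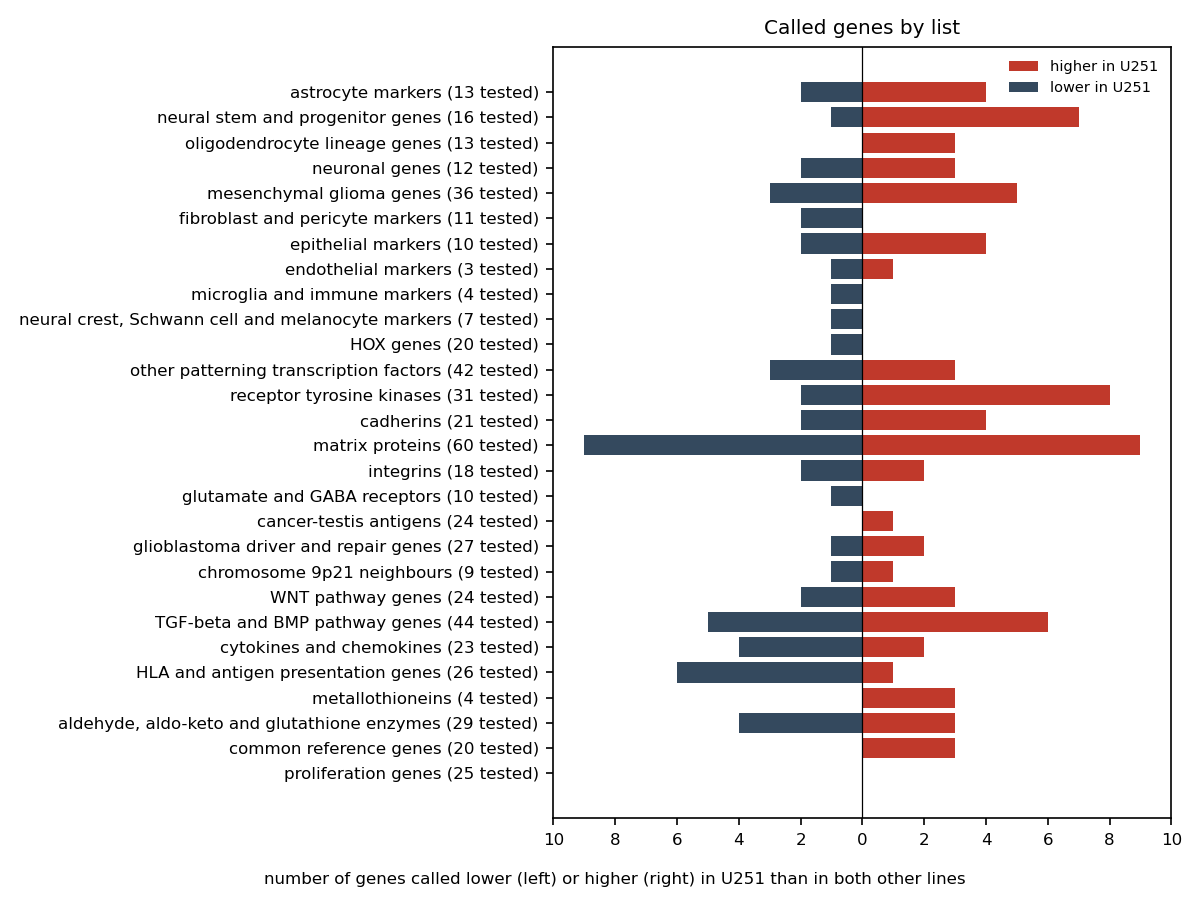
Number of genes of each list called higher (right, red) or lower (left, dark blue) in U251 than in both other lines, with the number tested in parentheses. Receptor tyrosine kinases (8 higher, 2 lower) and neural stem and progenitor genes (7 higher, 1 lower) lie to the right, HLA and antigen presentation genes (1 higher, 6 lower) to the left, and matrix proteins (9 and 9) on both sides.

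Some genes were detected in U251 alone, at 1 CPM or more in both of its libraries and under 3 reads in all 4 others. There were 32 of them among 59074 listed genes (0.0542%), against 156 (0.264%) for LN-229 and 82 (0.139%) for T98G. Of the 32, 19 were protein-coding and 5 long non-coding. The highest after GJB2 were WBSCR17, a glycosyltransferase gene, at 24 and 20.9 CPM, ZNF518B at 18.8 and 21.6 CPM, UNC5D, a netrin receptor, at 24.1 and 13.6 CPM, AMPD1 at 12.3 and 13.6 CPM and SOX21. Among those further down, chosen after their values were seen, were the iron exporter SLC40A1 at 9.57 and 6.17 CPM, the neuronal catenin CTNNA2 at 11.5 and 3.78 CPM and SOX3, a relative of SOX2, at 1.59 and 2.10 CPM.

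Absence in U251 alone, under 3 reads in both libraries and at 1 CPM or more in all others, held for 78 genes (0.132%), against 46 (0.0779%) for LN-229 and 64 (0.108%) for T98G. Of the 78, 67 were protein-coding. After PERP and the H4 genes came SALL1, a zinc finger factor of kidney and microglia, at 0.0383 and 0 CPM in U251, 13.8 and 14.6 CPM in LN-229 and 9.76 and 9.90 CPM in T98G, SECTM1 at 0.0383 and 0 CPM in U251, 9.15 and 10.1 CPM in LN-229 and 13 and 11.2 CPM in T98G, and AFAP1L2 at 0 and 0.00988 CPM in U251, 10.5 and 9.33 CPM in LN-229 and 32.4 and 31.1 CPM in T98G. Among others, chosen after their values were seen, GLI2, an effector of Hedgehog signalling, was at 0.0191 and 0 CPM in U251, 25.2 and 22.2 CPM in LN-229 and 1.36 and 1.40 CPM in T98G, and CHCHD10, a mitochondrial protein, was at 0 in U251 and 2.27 to 7.43 CPM elsewhere. Without the U251 siControl library, 35 genes were detected and 91 absent in U251 alone, and without the U251 siHOTAIRM1 library 120 genes were absent.

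By chromosome, called genes were not spread evenly. Of 13023 tested genes with a position, 7.91% were higher and 4.37% lower. On chromosome 6, 115 of 709 genes were higher (16.2%), on chromosome 9, 81 of 518 (15.6%), and on chromosome 4, 68 of 488 (13.9%). Shares of higher genes were small on chromosome 22, with 6 of 297 (2.02%), and on chromosome 20, with 10 of 351 (2.85%). Lower genes were frequent on chromosome 18, with 23 of 199 (11.6%), and on chromosome 22, with 30 of 297 (10.1%). The share on chromosome 6 was 11.3%, 12.8% and 11.6% with protein-coding scaling, median centring and quantile normalization, where 5.08%, 5.57% and 5.28% of all placed genes were higher, and 15% without the U251 siControl library, where 7.33% were. In the same settings the share of higher genes was 10.2%, 11.4%, 9.65% and 15.1% on chromosome 9 and 10.5%, 11.3%, 10.2% and 13.7% on chromosome 4. In the same 3 scalings the share of lower genes was 20.6%, 16.1% and 14.1% on chromosome 18 and 17.8%, 12.8% and 10.1% on chromosome 22, where 7.63%, 5.62% and 4.80% of all placed genes were lower, and with protein-coding scaling it was 13.1% on chromosomes 20 and 21. Without the U251 siControl library it was 11.1% on chromosome 18 and 9.09% on chromosome 22, against 4.22%. The median difference on chromosome 6 was 0.57 from LN-229 and 0.59 from T98G. Copy number was not measured, and its part in these shares was not tested.

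Neighbouring genes were called together in 12 runs of at least 4 consecutive tested genes, 9 higher and 3 lower. No count of runs for LN-229 or T98G is set beside them, so they are not shown to be particular to U251. The higher runs depended on the scaling. Protein-coding scaling gave 2 higher and 5 lower runs, median centring 3 and 4, and quantile normalization 2 and 4, and in turn 1, 2 and 1 of the 9 higher runs and all 3 lower runs had every gene called. Without the U251 siControl library there were 8 higher and 3 lower runs, with every gene called in 5 of the 9 and in the 3, and without the U251 siHOTAIRM1 library 7 and 2, with every gene called in 7 and 2. These settings were chosen for the runs after the data had been seen. Of the higher runs, 5 lay on chromosome 9, the longest with 6 genes over 395 kb, APTX, DNAJA1, SMU1, B4GALT1, BAG1 and CHMP5. Another held PLGRKT, CD274, PDCD1LG2 and RIC1 over 419 kb, so that the PD-1 ligands were higher along with their neighbours as deposited. Neither of these runs had every gene called under any of the 3 other scalings. The lower runs were that of C1S and C1R on chromosome 12, a set of 5 zinc finger genes and relatives on chromosome 19 over 643 kb (ZNF486, ZNF826P, ZNF737, ZNF626 and ZNF66), and 4 histone genes on chromosome 6 over 17.3 kb. Zinc finger and histone genes of these clusters share sequence, and how reads were divided among them was not tested.

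Some called genes also differed between the siPOOL treatments within U251, 78 of the 1099 higher (7.10%) and 7 of the 617 lower genes (1.13%) by at least 1. Of all 14294 tested genes, 296 (2.07%) did. A gene under 1 CPM in both U251 libraries, as 329 of the lower and 0 of the higher genes were, cannot differ by this much on the log2(CPM + 1) scale. These shares therefore do not compare the groups with each other or with all genes. ID2, MT1E, KRT81, PCDH20 and RGS4 were among the higher genes with such a difference, each with more RNA in the siControl library. CA9, described below, had more in the siHOTAIRM1 library. These genes are examples, and the directions among all such genes are not given. With 1 library per condition in the line, knock-down and library composition cannot be told apart, and no test was made.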

How the data were processed

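The deposited table holds CPM values for 59074 genes, and the offset of 0.0001 that the authors put on each was taken off. The authors made TruSeq RNA libraries from 500 ng of total RNA, read 101 cycles, trimmed 13 and 1 bases at the ends in Partek Flow, aligned to hg38 with STAR 2.4.1d and quantified on Ensembl release 84 by expectation maximization. Listed genes held 67.2 and 55.9% of the CPM scale in the U251 libraries and 42.9 to 50.2% in the others. Of all values, 71.9 to 76.9% were whole reads within 0.02, so no count test was used. Depth was read from the steps between low values, and 3 reads were the floor. The 14294 genes that averaged at least 1 CPM were fitted with limma 3.58.1 (R 4.3.3) on log2(CPM + 1), with line and siPOOL as terms, a mean-variance trend and Benjamini-Hochberg adjustment over all genes in each contrast (2 residual degrees of freedom, 32.5 prior). Pairing by siPOOL leaves the spread of line by siPOOL as error.

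Named genes were the 12 protein-coding and 3 long non-coding genes farthest from the nearer line in each direction, up to 3 called members of each of 28 lists in each direction, fixed markers, and up to 6 protein-coding genes detected or absent in U251 alone. Some of these genes are not reported here. Members and lists were chosen with earlier results of these data known. Positions and gene types are from GENCODE release 44, matched by symbol for 34203 genes (1712 by a synonym) and for 91.2% of tested genes. The alternatives were no siPOOL term, a pseudocount of 0.1, other filters, 3 scalings, no trend, other minimum differences, detection at 0.5 CPM and leaving out each library. Sex-linked transcripts of the Y chromosome were left out. Python 3.11.15, numpy 2.4.6, pandas 2.3.3 and matplotlib 3.10.9 were used.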

Additional observations from a re-analysis of the deposited data

How the results depend on the processing

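Of 144 named genes with a fitted difference, 135 were called. Most were named for a large difference, so the counts that come next do not stand for all called genes. Over all settings except the other minimum differences, 1980 values kept their side of the threshold, 36 lost the call (12 genes) and 0 reversed. The counts of genes for U251 alone moved with the scaling and the threshold, from 1099 higher and 617 lower. A pseudocount of 0.1 gave 959 lower, scaling to protein-coding genes 707 higher and 1106 lower, no minimum difference 3484 higher and 1752 lower, and a minimum of 2 gave 238 and 182. Without the filter, which tests more genes, 5132 genes were lower than in LN-229 and 5467 lower than in T98G. Leaving out each library in turn gave 901 to 1287 higher and 578 to 718 lower for U251 alone, 3301 to 4874 higher and 2566 to 3232 lower against LN-229, 3806 to 5646 higher and 2177 to 3175 lower against T98G, 35 to 38 genes detected and 78 to 120 absent in U251 alone. A lone library is then assumed to vary like the others. The cause of these moves was not tested. No siPOOL term (1097 and 612), no trend (1100 and 616) and 1 CPM in at least 2 libraries (1157 and 626) stayed within 1.5 times. Depth limits absence: at 52.3 M reads in U251 siControl, a level under 0.0574 CPM was not detectable.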

Other observations

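Further genes called for U251 alone, chosen after their values were seen, belong to groups on no list. Beside AHR, its repressor AHRR was at 0.249 and 0.583 CPM in U251, 14.7 and 17.3 CPM in LN-229 and 22.6 and 23 CPM in T98G, and ARNT2, a dimerization partner of the same protein family, at 0.191 and 0.198 CPM in U251, 25.3 and 20.3 CPM in LN-229 and 22.8 and 15.8 CPM in T98G. U251 was lowest for both. Of the Hedgehog pathway, the transducer SMO was at 0.249 and 0.514 CPM in U251, 17.7 and 21.9 CPM in LN-229 and 11.1 and 16.5 CPM in T98G, low in U251 as was GLI2. The deaminase APOBEC3B was at 0.0191 and 0.0905 CPM in U251, 16 and 16.1 CPM in LN-229 and 27.3 and 22.6 CPM in T98G and the non-muscle myosin chain MYH10 at 3.56 and 7.0 CPM in U251, 135 and 157 CPM in LN-229 and 73.1 and 90.3 CPM in T98G. Both U251 libraries lay under all 4 others for each of these genes, as the call requires.

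Among genes higher in U251, the nuclear pore component NUP210 was at 35.7 and 54.4 CPM in U251, 0 and 0 CPM in LN-229 and 0.0724 and 0.0275 CPM in T98G. CA9, a carbonic anhydrase induced by hypoxia, was at 29.1 and 92.8 CPM in U251, 0.215 and 0.366 CPM in LN-229 and 0.550 and 0.412 CPM in T98G, higher in the siHOTAIRM1 library of U251 and above all other lines in both. LMO3, a LIM domain cofactor of the nervous system, was at 33.4 and 33.8 CPM in U251, 0.0793 and 0.144 CPM in LN-229 and 0 and 0.0138 CPM in T98G. VLDLR, a receptor of the reelin pathway, was at 145 and 153 CPM in U251, 6.63 and 6.56 CPM in LN-229 and 1.52 and 1.49 CPM in T98G, and CKB, the creatine kinase of brain, at 46.9 and 45.3 CPM in U251, 1.18 and 1.84 CPM in LN-229 and 0.492 and 0.440 CPM in T98G. DCLK1, a microtubule-associated kinase of neurons, was at 28.6 and 21.8 CPM in U251, 0.317 and 0.481 CPM in LN-229 and 0.405 and 0.357 CPM in T98G. No library of LN-229 or T98G reached the lower U251 value of any of them, as the call requires.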
